A study of Mus musculus with 10 samples.

Results

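Lung RNA of mice fed fish oil or coconut oil was compared for 10 genes, 9 of them known for their expression in the endothelium of the lung and the last, Vegfa, encoding its main growth factor. The genes were chosen by symbol, as Cldn5, Cdh5, Pecam1, Kdr, Tek, Car4, Ednrb, Calcrl, Epas1 and Vegfa, and all 10 were found among the 24059 symbols of the count table. None of the 10 passed the test between the diets (unadjusted p-value under 0.05), and the FO and CO values of each of them overlapped. Epas1 was by far the most abundant, at 723 ± 122 CPM in FO mice and 804 ± 140 CPM in CO mice (mean ± SD, n = 5). Here CPM, the usual per-library scale, divides counts by a library size corrected for composition (TMM). Cdh5 had the smallest exact p, at 30.8 ± 13.0 CPM in FO mice and 41.5 ± 6.92 CPM in CO mice (exact permutation test, two-sided, p = 0.119).

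The mice were female C57Bl/6 animals aged 14 weeks, and the animals of the study underwent pulmonary function testing before they were killed. For 8 weeks 5 of them ate a high-fat diet rich in n-3 PUFAs, in which 91% of the fat was menhaden fish oil and 9% corn oil (the FO group). The other 5 ate a high-fat diet of saturated fat from coconut oil, with olive and corn oil beside it (the CO group). Both diets held 19% fat by weight, so the CO group was a second high-fat diet and not a normal chow, and each sample was the whole lung of 1 mouse, flushed with PBS.

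Capillary endothelial cells line the alveolar wall, where the air and the blood are separated by a thin barrier. In the mouse they fall into aerocytes, which spread over the alveolus and carry Car4 and Ednrb, and general capillary cells. Their junctions hold VE-cadherin, claudin-5 and PECAM-1, and their survival depends on VEGF-A, which in the lung comes largely from alveolar type 1 epithelial cells and signals through Kdr. In whole lung, fewer endothelial cells and less RNA per cell cannot be told apart.

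Each library held 229766 to 1124963 counts, and Rn45s, the precursor of ribosomal RNA, took between 21.8% and 87.0% of them. The counts on all other genes ranged from 45177 to 473254, and the 10 genes together took between 156 and 1720 counts of a mouse. They made up between 0.327% (95% exact Clopper-Pearson interval 0.305% to 0.350%) of these other counts in FO mouse 1 and 0.469% (0.442% to 0.497%) in FO mouse 4. A floor of 3 counts was set, which stood for 2.29 CPM in the deepest library and 19.9 CPM in the shallowest. Intervals and floors cover counting error only. Malat1, a nuclear RNA, took 8.53% of the other counts of FO mouse 2 and 6.15% of those of CO mouse 5, while no other mouse exceeded 1.05%. Values without these 2 libraries are given beside several of the results that moved with them. Of the 28 further pan-endothelial genes in a list of tissue markers, 27 had a count, while Gpihbp1, a defining gene of general capillary cells, was at 0 in every mouse. Of the 10 listed general capillary genes with a symbol in the count table, 9 had a count. Whether a gene at 0 in every mouse was absent from the lung or lost in counting cannot be told here. The annotation used for counting is not given.

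Sequences upstream of the transcription start are shown for the receptor of VEGF, for VEGF itself, for the aerocyte gene Car4 and for Cldn5, the gene with the widest spread between mice, because the ligand and its receptor are a pair and the values of Car4, Vegfa and Cldn5 depended most on single mice. The RefSeq promoter table for GRCm38.p6, the build that mm10 names, matched 7 of the 10 genes with 8 windows of 300 bases. Cdh5, Pecam1 and Epas1 had no entry. Of each window the 250 bases before the start are printed 5′ to 3′ on the gene's strand. Capitals mark CCGGAA, the core bound by ETS factors, or ACGTG, the core of the hypoxia response element, searched on both strands.
Kdr, chr5:75978456-75978705, minus strand: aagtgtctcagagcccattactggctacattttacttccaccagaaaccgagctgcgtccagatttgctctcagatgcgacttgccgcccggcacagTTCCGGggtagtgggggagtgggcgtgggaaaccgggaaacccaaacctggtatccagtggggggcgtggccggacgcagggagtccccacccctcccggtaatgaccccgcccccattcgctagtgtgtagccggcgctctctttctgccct
Car4, chr11:84957504-84957753, plus strand: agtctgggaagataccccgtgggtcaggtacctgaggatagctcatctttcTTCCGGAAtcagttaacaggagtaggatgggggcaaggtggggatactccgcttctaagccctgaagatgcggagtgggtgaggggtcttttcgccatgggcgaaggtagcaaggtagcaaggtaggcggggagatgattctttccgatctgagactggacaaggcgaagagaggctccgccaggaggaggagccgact
Vegfa, the window of a start inside the gene, chr17:46025164-46025413, minus strand: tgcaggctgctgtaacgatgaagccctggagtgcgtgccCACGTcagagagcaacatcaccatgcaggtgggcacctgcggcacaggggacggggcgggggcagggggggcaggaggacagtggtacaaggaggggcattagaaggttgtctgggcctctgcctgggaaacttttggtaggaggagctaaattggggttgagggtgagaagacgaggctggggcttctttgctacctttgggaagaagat
Cldn5, chr16:18776597-18776846, plus strand: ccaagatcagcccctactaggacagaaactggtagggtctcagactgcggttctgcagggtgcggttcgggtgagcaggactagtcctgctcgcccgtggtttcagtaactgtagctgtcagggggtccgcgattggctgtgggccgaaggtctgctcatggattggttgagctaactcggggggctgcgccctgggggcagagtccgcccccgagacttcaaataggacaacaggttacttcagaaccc
The ETS core was in 2 of the 8 windows, those of Kdr and Car4, where 14.9% of all 32851 promoter windows held it. In Car4 it was found on both strands in overlapping letters. The hypoxia response core was in the Car4 window, just after the start and outside the printed bases. It was also in the printed Vegfa window, that of a start inside the gene. These were again 2 of 7 genes, where 19.6% of all windows held it. The Vegfa window upstream of the whole gene, with its 250 bases at chr17:46032378-46032627, held neither core and is not printed. The printed Cldn5 window held neither. A match of letters is a description and not a binding site.

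Positions are those of GENCODE vM21 on GRCm38. Epas1 and Vegfa lie on chromosome 17, from 86753700 to 86833410 and from 46016993 to 46032369. Pecam1 and Car4 lie on chromosome 11, from 106654217 to 106750628 and from 84957786 to 84966044. Cldn5, a gene of 1 exon, lies on chromosome 16 from 18776847 to 18778262, Cdh5 on chromosome 8 from 104101625 to 104144511 and Kdr on chromosome 5 from 75932827 to 75978458. Tek lies on chromosome 4 from 94739289 to 94874976, Ednrb on chromosome 14 from 103814625 to 103844402 and Calcrl on chromosome 2 from 84330626 to 84425411. No exon of another annotated gene overlapped an exon of any of the 10.

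Levels of the genes were compared as CPM per kilobase of merged exons, averaged over the 10 mice. Neighbours in the order of these means were tested. The order came from the same mice, so the p-values do not allow for the choice of the pairs. Epas1, the hypoxia-inducible factor HIF-2α, had 137 ± 23.4 CPM per kb and stood above Cldn5, the next gene, in 10 of 10 mice (two-sided exact sign-flip permutation test, p = 0.0020, the smallest that 10 mice allow, adjusted p = 0.018 over 9 neighbouring pairs). Cldn5 followed with 23.3 ± 19.7, Pecam1 with 19.1 ± 4.40 and Calcrl with 17.4 ± 5.31 CPM per kb. Vegfa had 11.1 ± 6.39, Car4 9.05 ± 5.76, Kdr 8.95 ± 3.63 and Cdh5 8.60 ± 2.69 CPM per kb, and Ednrb and Tek were lowest, at 4.59 ± 2.24 and 3.92 ± 2.32 CPM per kb. None of the 8 pairs of neighbours after Epas1 and Cldn5 differed after adjustment (exact permutation, adjusted p from 0.062 for Cdh5 above Ednrb to 0.875 for Kdr and Cdh5, where the mean log2 difference was -0.040 and Kdr the higher in 5 of 10 mice). Epas1 was also above Cldn5 in 8 of 8 mice without FO mouse 2 and CO mouse 5. With the length of the longest transcript in place of merged exons, Pecam1 moved above Cldn5 and Car4 above Vegfa, while Epas1 stayed first and Tek last.

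**Figure D1:**
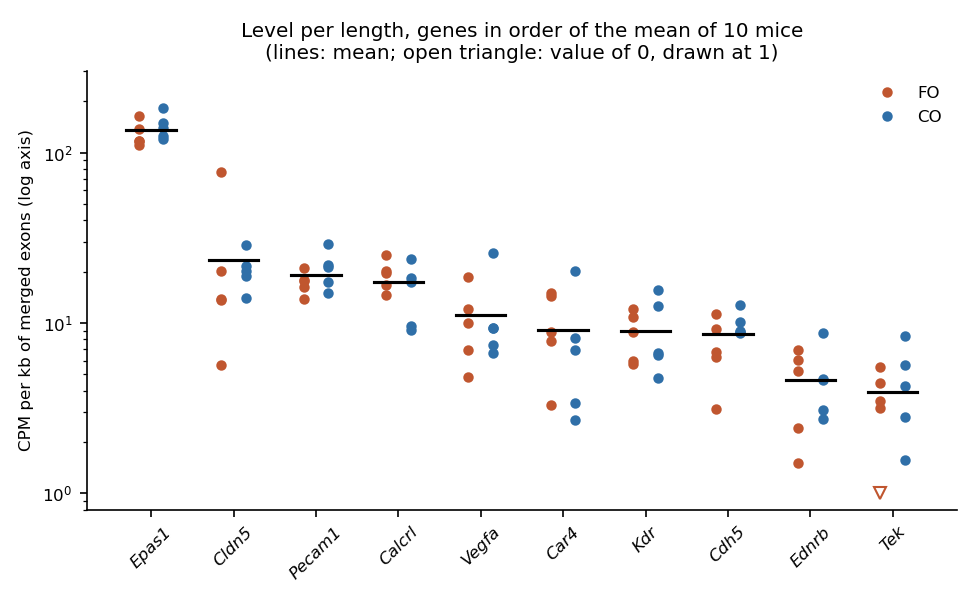
Level of each gene in CPM per kb of merged exons (log axis), with 1 point per mouse (orange FO, blue CO) and a line at the mean of 10 mice. Epas1, at 137 CPM per kb on average, stands apart from the other genes, whose points overlap from neighbour to neighbour down to Tek, with 0 counts in FO mouse 3.

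The question of the comparison was whether the FO diet changed the expression of lung genes against the CO diet. Of the 10 genes, 6 passed edgeR's default filter on low counts, and Cldn5, Tek, Car4 and Ednrb did not and were read from a second edgeR fit, over the 14161 genes that had a count in any mouse. Called genes made up 2.91% of the 2438 genes in the former fit (1.68% higher and 1.23% lower in FO mice) and 4.15% of the genes in the latter (2.58% higher and 1.57% lower), where 0.00706% passed after adjustment. In the latter fit, which held all 10 genes, 0 of the 10 had an unadjusted p-value under 0.05 or an adjusted one, and 0 of the 6 did with the default filter in edgeR, DESeq2 or limma-voom. Log2 fold changes (FO against CO) had a median of -0.10 over the 10 genes and of 0.05 over all genes in the fit with any count. The interval of the difference included 0 for each gene, and for 5 of them, Cdh5, Pecam1, Kdr, Calcrl and Epas1, it lay within a 2-fold change in either direction. For the other 5 genes a change of 2-fold was within the interval. Genes whose groups did not overlap made up 0.41% of the 2438 genes, and 0 of the 10 were of that kind.

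**Figure D2:**
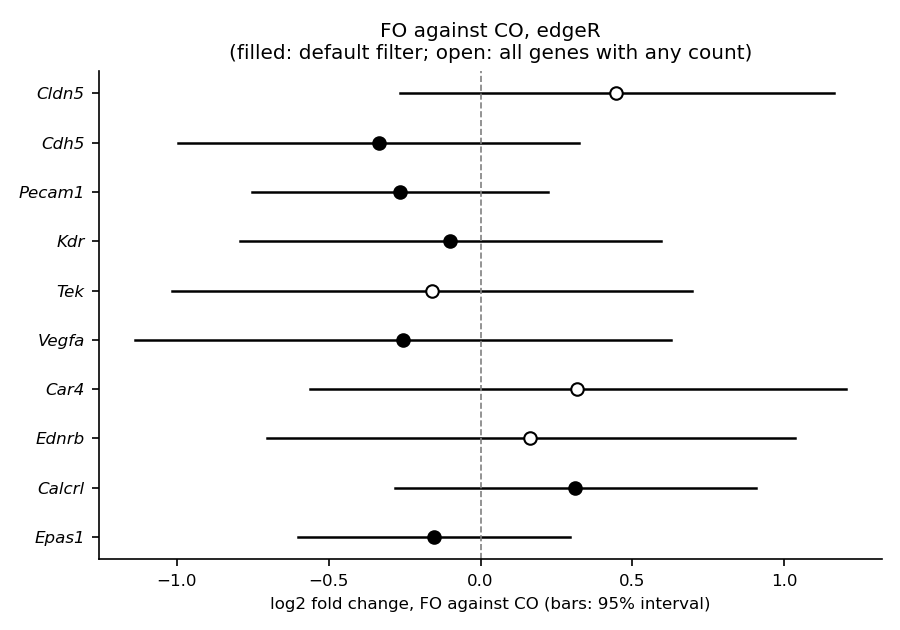
Log2 fold change of each gene, FO against CO, from edgeR, with its 95% interval (filled circles, default filter; open circles, fit of all genes with any count). All 10 intervals include 0, and those of Epas1 and Pecam1 are the narrowest.

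Of the 3 junction genes, Cdh5 encodes VE-cadherin, the adhesion protein of endothelial adherens junctions. It had 26.5, 47.4, 38.7, 28.4 and 13.1 CPM in FO mice 1 to 5 and 53.2, 42.6, 37.2, 37.8 and 36.7 CPM in CO mice 1 to 5. Of the FO mice 3 lay below every CO mouse, and FO mouse 2 lay above 4 of the 5 CO mice. Cdh5 had a log2 fold change of -0.33 (standard error 0.31, 95% interval -0.996 to 0.33, edgeR adjusted p = 0.998). The low value of FO mouse 5 rested on 4 counts, and the log2 fold change was -0.20 without that mouse and -0.61 without FO mouse 2.

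Pecam1 encodes the adhesion protein PECAM-1 (CD31), found on endothelium and also on platelets and leukocytes. Its FO values were 86.3, 130, 110, 111 and 102 CPM in mice 1 to 5, and its CO values were 93.0, 181, 136, 108 and 133 CPM. The FO values lay within a narrow range, and CO mice 2, 3 and 5 were above every FO mouse. For Pecam1 the log2 fold change was -0.26 (standard error 0.23, interval -0.75 to 0.22, edgeR adjusted p = 0.998, two-sided exact permutation p = 0.222).

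Cldn5 encodes claudin-5, which seals endothelial tight junctions. The counts of Cldn5 were 7, 142, 3, 23 and 6 in FO mice 1 to 5 and 3, 5, 13, 29 and 31 in CO mice 1 to 5, so that FO mouse 2 held 142 of the 181 counts of its group. In CPM that mouse was at 109, while the other FO mice ranged from 8.05 to 28.4 CPM and the CO mice from 19.9 to 40.7 CPM. The log2 fold change of Cldn5 was 0.45 with all mice (standard error 0.36, interval -0.26 to 1.16), -0.69 without FO mouse 2 and -0.51 without FO mouse 2 and CO mouse 5. The direction for this gene thus rested on 1 library, and the difference of the mean log2 CPM was -0.13 with all mice (two-sided exact permutation p = 0.770).

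Kdr encodes VEGFR-2, the main signalling receptor of VEGF-A, whose promoter with the ETS core is printed above. Its values were 54.1, 109, 51.6, 80.3 and 98.2 CPM in FO mice 1 to 5 and 59.8, 58.6, 114, 43.0 and 140 CPM in CO mice 1 to 5. The FO values lay inside the range of the CO values, and CO mouse 5 was the highest of all. Kdr had a log2 fold change of -0.10 (standard error 0.33, interval -0.79 to 0.59, edgeR adjusted p = 0.998). It was 0.05 without FO mouse 2 and CO mouse 5, and 0.22 without CO mouse 5 alone.

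Vegfa, the ligand, had 20.7, 79.5, 51.6, 29.6 and 42.6 CPM in FO mice 1 to 5 and 39.9, 31.96, 28.5, 39.9 and 110 CPM in CO mice 1 to 5. FO mouse 2 and CO mouse 5 were the highest of their groups, and without both the means were 36.1 ± 13.7 CPM for FO and 35.1 ± 5.76 CPM for CO (SD, n = 4). The log2 fold change was -0.25 with all mice (standard error 0.42, interval -1.14 to 0.63, edgeR adjusted p = 0.998). In the fit of all genes with any count, Vegfa was at -0.08 without both mice, at 0.41 without CO mouse 5 and at -0.70 without FO mouse 2, where its unadjusted p-value of 0.049 passed the threshold (edgeR adjusted p = 0.790). The markers of alveolar type 1 cells, the main source of Vegfa in lung, held 9 genes of 10 with a count, Aqp5 being at 0. All 9 were tested, 1 of them with a positive and 8 with a negative log2 fold change. Akap5 fell in the FO group, from 411 ± 264 to 216 ± 22.5 CPM (log2 fold change -0.96, standard error 0.34, unadjusted p = 0.011, edgeR adjusted p = 0.998, n = 5 mice each), as the 1 gene of the list to pass the test. All FO values of Akap5, from 188 to 240 CPM, lay inside the CO range of 171 to 772 CPM, and the exact permutation test did not pass (two-sided, p = 0.183). Akap5 is also among the genes the study named from these mice. The summed level of the list ranged from 1071 to 1543 CPM in FO mice and from 986 to 3219 CPM in CO mice. Its median was 1205 CPM in FO mice and 1110 CPM in CO mice, against the sign of most of the genes. The part of this list in the Vegfa values was not tested.

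Tek encodes the angiopoietin receptor TIE2. The counts of Tek were 13, 34, 0, 17 and 5 in FO mice 1 to 5 and 3, 5, 6, 7 and 30 in CO mice 1 to 5. FO mouse 3 and CO mouse 1 were at or under the floor, and FO mouse 2 and CO mouse 5 were again the highest of their groups, at 26.0 and 39.4 CPM. For Tek the log2 fold change was -0.16 (standard error 0.44, interval -1.02 to 0.70). It was 0.29 without FO mouse 2 and CO mouse 5, and 0.48 without CO mouse 5 alone.

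The aerocyte genes were among the lowest in counts. Car4, a carbonic anhydrase on the capillary surface, had 15, 20, 1, 23 and 9 counts in FO mice 1 to 5 and 1, 3, 18, 13 and 4 counts in CO mice 1 to 5, with 3 mice at or under the floor. CO mouse 3, at 39.4 CPM, stood above the highest FO mouse, at 29.5 CPM, and the other CO mice ranged from 5.25 to 16.0 CPM. Car4 had a log2 fold change of 0.32 (standard error 0.45, interval -0.56 to 1.205). Without CO mouse 3 it was 1.03, with an unadjusted p-value of 0.0498 that passed the threshold (edgeR adjusted p = 0.904). The log2 fold change of Car4 was 0.03 without CO mouse 5, 0.48 without FO mouse 2 and 0.17 without both of these. Ednrb, the endothelin receptor type B, had between 6.45 and 29.5 CPM in FO mice and between 11.5 and 37.3 CPM in CO mice. Its log2 fold change was 0.16 (standard error 0.44, interval -0.70 to 1.036), and FO mouse 3 and CO mouse 1 were at or under the floor. The group means of Ednrb ran the other way, at 18.9 ± 9.999 CPM for FO and 20.3 ± 10.2 CPM for CO, as did the difference of the mean log2 CPM, at -0.14 (two-sided exact permutation p = 0.762).

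Calcrl encodes the receptor for adrenomedullin and, with another partner protein, for CGRP. It had 81.7, 122, 71.0, 96.4 and 98.2 CPM in FO mice 1 to 5 and 46.5, 85.2, 116, 44.1 and 89.2 CPM in CO mice 1 to 5. CO mice 1 and 4 lay below every FO mouse, and the other CO mice lay among them. Calcrl had a log2 fold change of 0.31 (standard error 0.28, interval -0.28 to 0.91, edgeR adjusted p = 0.998, two-sided exact permutation p = 0.270). Calcrl was the 1 gene with a positive value among the 6 that passed the filter.

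Epas1 is the factor with which endothelial and other lung cells answer low oxygen. The values of Epas1 were 621, 655, 652, 917 and 769 CPM in FO mice 1 to 5 and 837, 698, 675, 1025 and 784 CPM in CO mice 1 to 5. It had the smallest standard error of the 10 genes, and FO mice 1 to 3 lay below every CO mouse. The log2 fold change of Epas1 was -0.15 (standard error 0.21, interval -0.60 to 0.29, edgeR adjusted p = 0.998, two-sided exact permutation p = 0.349).

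**Figure D3:**
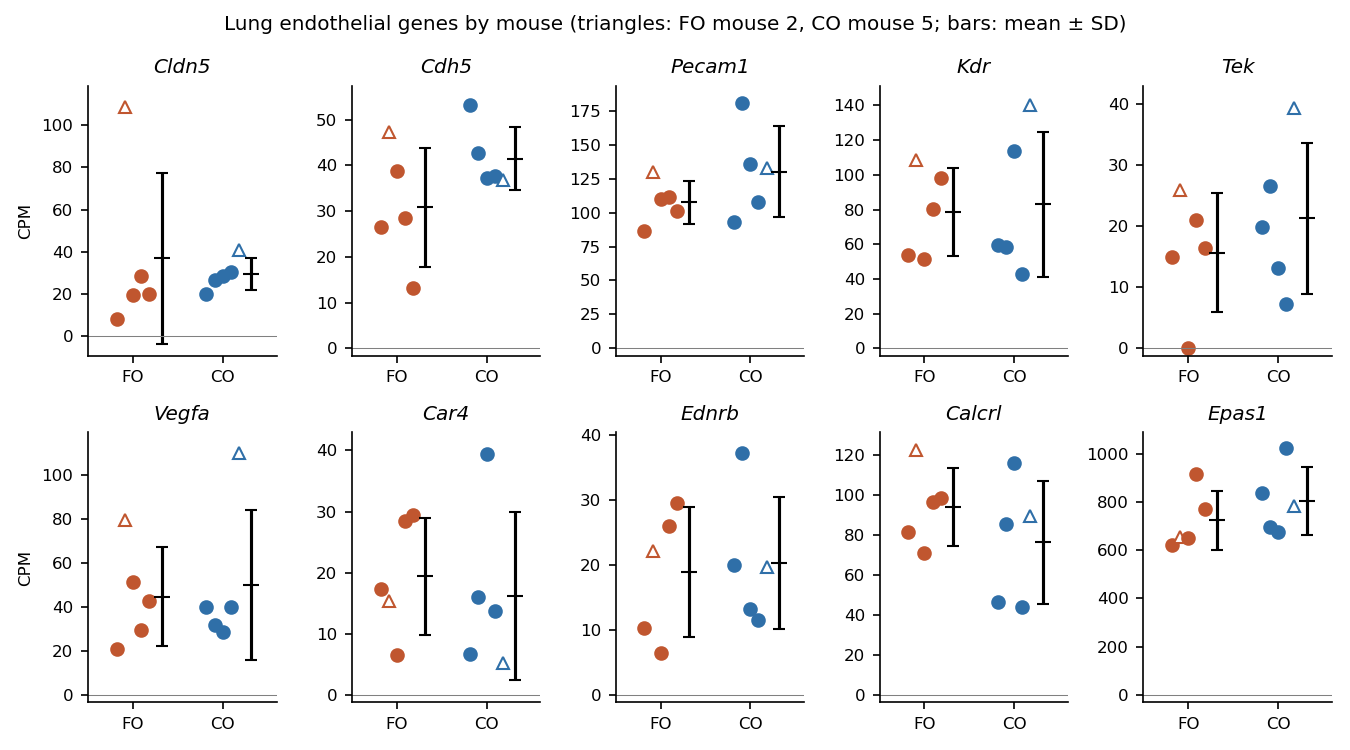
CPM of each gene in each mouse, by diet, with the mean ± SD of 5 mice beside the points, and FO mouse 2 and CO mouse 5 as open triangles. The diets overlap in all 10 panels, and the triangles are the highest points of both diets for Cldn5, Kdr, Tek and Vegfa.

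The spread between mice of 1 diet was wide for most of the genes. Over the FO group the SD ranged from 14.7% of the mean for Pecam1 to 111% for Cldn5, and over the CO group from 16.7% for Cdh5 to 85.0% for Car4. FO mouse 2 was the highest of its group for 7 of the 10 genes and CO mouse 5 for 4, and both were for Cldn5, Kdr, Tek and Vegfa. Among the 6 genes that passed the default filter FO mouse 2 was highest for 5, against 28.6% of all 2438 genes, CO mouse 5 for 2, against 23.3%, and both for 2, against 15.6%. Among the 45 other genes of the endothelial and partner lists that passed the filter, both mice were highest for 4, or 8.89%. Those 4 were Esam, Cxcl12, Mllt4 and Ptprb, which encodes the phosphatase VE-PTP, a regulator of both VE-cadherin and TIE2. Ptprb had 402 CPM in FO mouse 2, where the next FO mouse had 146, and 453 CPM in CO mouse 5, where the next CO mouse had 193, and a log2 fold change of -0.25 (standard error 0.50), which was -0.98 without FO mouse 2, 0.41 without CO mouse 5 and -0.30 without both. The part of the Malat1 share in these values was not tested.

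The partners of the 10 genes in their pathways were read from lists of VEGF, angiopoietin, adrenomedullin and CGRP, endothelin, hypoxia and junction genes. Of 50 partner genes, 19 passed the filter, 8 with a positive and 11 with a negative log2 fold change, and 0 of the 19 passed the test in edgeR (smallest unadjusted p = 0.080, for Egln1). Their median was -0.07, against 0.00 over the 2438 genes. The VEGF receptor Flt1 was at -0.03 (standard error 0.37) and the co-receptor Nrp1 at -0.07 (standard error 0.35). Both values rested on FO mouse 2, which held 138 CPM of Flt1 and 481 CPM of Nrp1, where no other FO mouse exceeded 55.7 and 186 CPM. Without that mouse Flt1 was at -0.54 (unadjusted p = 0.108, edgeR) and Nrp1 at -0.62 (unadjusted p = 0.029, edgeR adjusted p = 0.670), and without CO mouse 5 as well they were at -0.35 and -0.49. Of the 19 partner genes 2, Nrp1 and Ptprb, passed the unadjusted threshold without FO mouse 2, both lower in FO mice, and 0 did without both mice or without CO mouse 5 (edgeR). Ramp2, which joins Calcrl to form the adrenomedullin receptor, was at 0.14 (standard error 0.40), with 31.3 ± 13.3 CPM for FO and 29.1 ± 16.9 CPM for CO (SD, n = 5), and at -0.14 without both mice. Ece1, which matures endothelin, was at -0.23 (standard error 0.26) and at -0.46 without both mice. Hif1a, the relative of Epas1, was at 0.02 (standard error 0.37) and at -0.02 without both mice. Egln1, the prolyl hydroxylase that marks both factors for breakdown, was at -0.56 (standard error 0.30) and at -0.37 without both mice. Among junction genes, Ctnnb1, the β-catenin bound by VE-cadherin, was at -0.30 (standard error 0.25), and Esam, a junction protein of endothelium, at 0.48 (standard error 0.30). Of the partner genes below the filter, Arnt had 19.8 to 32.7 CPM in FO mice and 10.7 to 17.5 CPM in CO mice, without overlap (exact permutation p = 0.0079). Groups without overlap made up 0.346% of the 14161 genes with any count. Ramp1 was also higher in FO mice and Foxo1 lower (exact permutation p = 0.016 and 0.040, not adjusted).

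**Figure D4:**
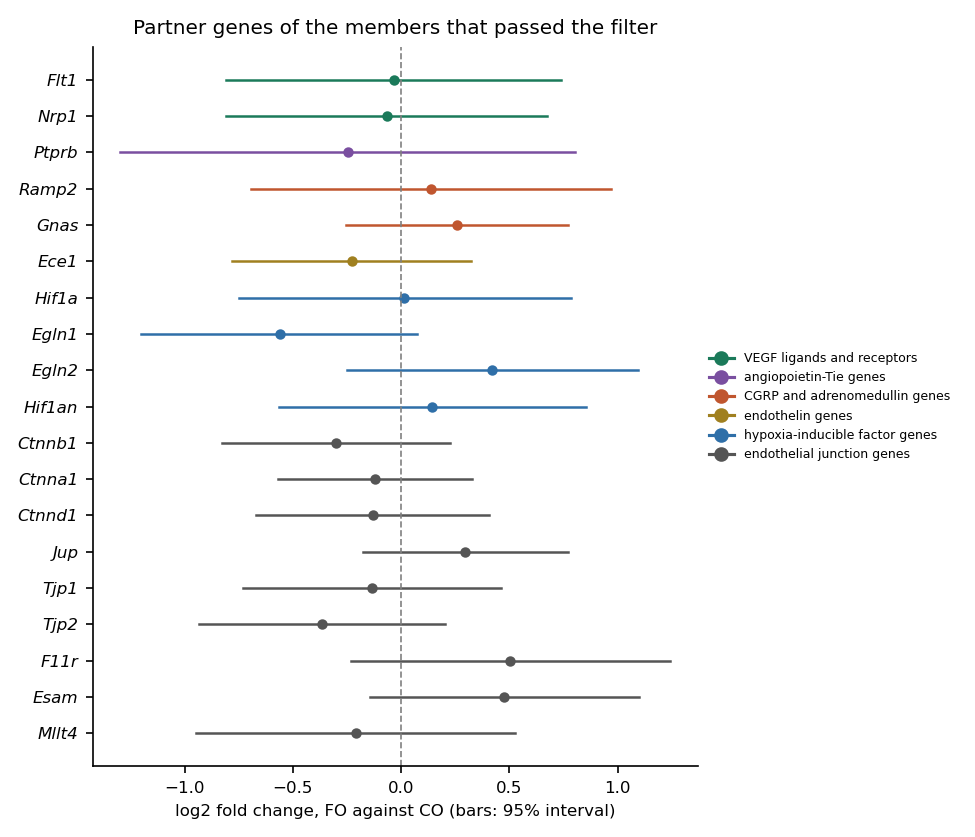
Log2 fold change, FO against CO, with its 95% interval, for the 19 partner genes that passed the filter, coloured by pathway list. Each interval includes 0, with Egln1 at -0.56 and F11r at 0.50 farthest to either side.

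Genes of particular vessel types were counted in the same way. None of the 14 other pan-endothelial genes that passed the filter was called (4 with a positive and 10 with a negative log2 fold change, median -0.03). Among them Erg was at -0.60 (standard error 0.30, unadjusted p = 0.063, edgeR), with 27.3 ± 9.40 CPM for FO and 44.2 ± 9.40 CPM for CO. Its exact permutation test gave p = 0.024 (two-sided, not adjusted), and the diets overlapped. Of the listed genes below the filter, Eng had the same exact permutation p in the other direction. It had 19.2 ± 4.48 CPM for FO and 9.99 ± 4.90 CPM for CO. Emcn and Robo4, also below the filter, were lower in FO mice (exact permutation p = 0.024 and 0.048, not adjusted). None of the 6 aerocyte or 6 general capillary genes that passed the filter was called (medians -0.01 and 0.02). In the fit of all genes with any count, 0 of 11 aerocyte genes was called. There 1 of 9 general capillary genes was called higher and 1 lower in FO mice, against 2.58% and 1.57% of all genes. The lower one, Aplnr, had 7 counts over all mice (log2 fold change -2.34, unadjusted p = 0.043, edgeR adjusted p = 0.905). In the list for larger vessels 1 of 4 genes tested was called. Bgn, the matrix proteoglycan biglycan, which is made by many cells besides endothelium, rose from 130 ± 26.5 CPM in the CO group to 208 ± 49.3 CPM in the FO group (log2 fold change 0.64, standard error 0.24, unadjusted p = 0.014, edgeR adjusted p = 0.998, n = 5 mice each). The study named Bgn from these mice, under a symbol read here as a misspelling of it, so its call is no separate evidence. Of the 6 lymphatic genes only Lyve1, a hyaluronan receptor also found on macrophages, passed the filter. It rose from 39.4 ± 6.89 to 58.5 ± 20.1 CPM in the FO group (log2 fold change 0.62, standard error 0.29, unadjusted p = 0.045, edgeR adjusted p = 0.998, n = 5 mice each), and the diets overlapped (exact permutation test, two-sided, p = 0.056). This call rested on FO mouse 2, at 91.7 CPM of Lyve1 where no other FO mouse exceeded 58.1 CPM. Without it the FO mean was 50.2 ± 8.75 CPM (n = 4) and the log2 fold change of Lyve1 0.36, which did not pass (unadjusted p = 0.224, edgeR), and without CO mouse 5 alone the unadjusted p was 0.072 (edgeR). Bgn kept its call in each of these settings. Of all 45 endothelial and partner genes 6 were called without FO mouse 2. Bgn and Lpl were higher in FO mice, and Cxcl12, Erg, Nrp1 and Ptprb lower. Lpl, of the general capillary list, was at 0.73 in the main fit (unadjusted p = 0.069, edgeR) and at 0.93 without FO mouse 2. In that setting 154 of all 2120 genes tested were called. Without CO mouse 5, 1 of the 45 was called (Bgn), against 65 of 2075. Without both it was 3 (Bgn, Lpl and Cxcl12), against 72 of 1830. Of the 45 genes 43, 42 and 40 passed the default filter there, and the others were read from the fit of all genes with any count. The smallest adjusted p-value was 0.670 (edgeR). The study named Cxcl12 from these mice too, so its calls are no separate evidence. Prox1 and the other lymphatic genes did not pass the filter, and Ccl21a was at 0 in every mouse.

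Whether genes of a shared role varied together over the 10 mice was asked for 4 pairs, on log2 CPM. For Cdh5 and Pecam1 Pearson's r was 0.34 (permutation p = 0.329, adjusted p = 0.588) and Spearman's rho 0.24 (permutation p = 0.512). For Car4 and Ednrb r was 0.27 (permutation p = 0.441, adjusted p = 0.588) and rho 0.35 (permutation p = 0.332). For Vegfa and Kdr r was 0.52 (permutation p = 0.127, adjusted p = 0.506) and rho 0.25 (permutation p = 0.489). FO mouse 2 and CO mouse 5 were the 2 mice farthest from the median of Vegfa, and without them r was -0.17, so the positive value rested on these mice. For Epas1 and Vegfa r was 0.03 (permutation p = 0.931) and rho 0.10 (permutation p = 0.787). Without the 2 mice farthest from the median of the first gene, r was 0.69 for Cdh5 and Pecam1, 0.57 for Car4 and Ednrb and 0.34 for Epas1 and Vegfa, with permutation p-values of 0.058, 0.147 and 0.407.

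**Figure D5:**
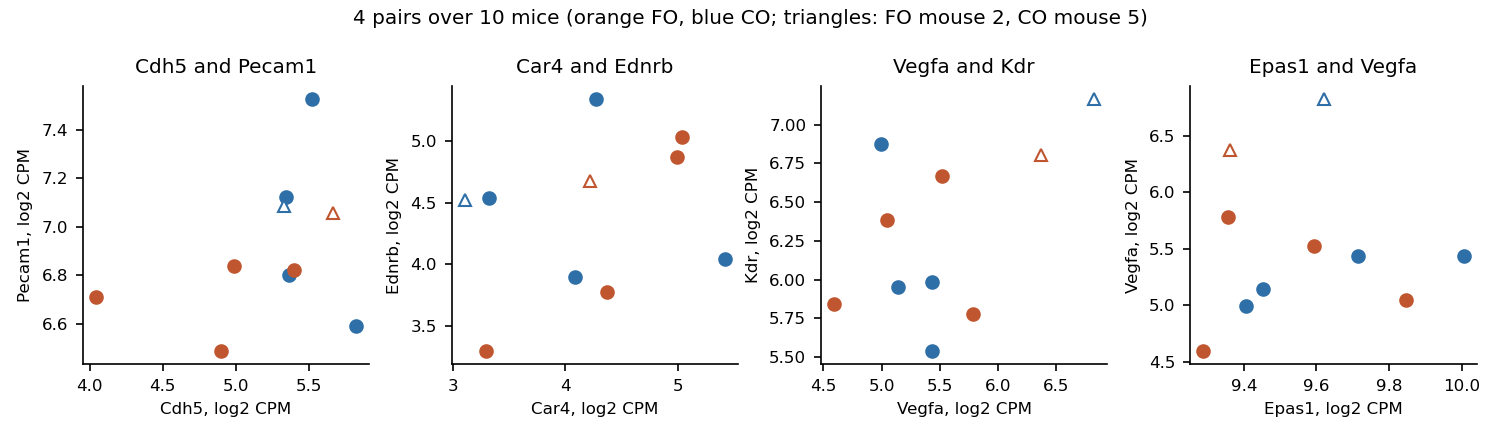
Log2 CPM of 4 pairs of genes, 1 point per mouse (orange FO, blue CO, open triangles FO mouse 2 and CO mouse 5). In the panel of Vegfa and Kdr the triangles lie alone at the upper right, and the other 8 mice have an r of -0.17.

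The mean log2 CPM of Cdh5, Pecam1, Kdr, Calcrl and Epas1 served to find the genes most like them over the 10 mice, among 2432 genes. These were Col6a3 (r = 0.92, rho = 0.85), Zfp704 (r = 0.89, rho = 0.92), Aox3 (r = 0.88, rho = 0.73), Gpr116 (r = 0.87, rho = 0.70) and Bmpr2 (r = 0.87, rho = 0.79), the BMP receptor of pulmonary vessels. All points share their libraries, and these values are descriptions of the closest genes among many. Without FO mouse 2 and CO mouse 5 their r ranged from 0.77 for Aox3 to 0.86 for Col6a3, and they stood at ranks 3 to 23. Of the 14 other pan-endothelial genes 11 had a positive r and 3, Egfl7, Cav1 and Cav2, a negative one, with a median of 0.43 against 0.02 over all genes compared. Without both mice 10 of the 14 were positive, with a median of 0.46 against 0.01.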

How the data were processed

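Single-end reads of 10 lungs had been aligned by the authors with STAR 2.4.0f1 to mm10, sorted with SAMtools 0.1.19 and counted with htseq-count, and the deposited values are raw counts per gene symbol without normalization. The annotation and strand setting of the counting are not given in the sources used here. Libraries were made with TruSeq RNA v2 or riboZero, and the kit of each mouse is not given in the sources used here, so a batch by kit could not be formed. Each mouse was 1 sample, with its diet taken from its title.

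The test was edgeR's quasi-likelihood test (version 4.0.16, R 4.3.3) after TMM scaling and the default filter (count of at least 10, total of at least 15). As in the study's methods, genes with an unadjusted p-value under 0.05 were called, and Benjamini-Hochberg adjustment was over all genes tested. CPM of all genes used the library sizes of that fit, and log2 CPM a prior count of 2. Standard errors and 95% intervals came from the information matrix scaled by the quasi-dispersion. The alternatives were DESeq2 1.42.0, limma 3.58.1 (voom with quality weights), other scalings and filters, robust estimation, Rn45s left out, a replicate block, and mice left out. Values of list genes without FO mouse 2 or CO mouse 5 were added after the data were seen. Fits were tested on simulated data. The text names the 10 genes, list genes with an unadjusted p-value under 0.05 in the main fit (at most 4 a list) and the 5 genes most like them. Ptprb, Esam, Cxcl12, Mllt4, F11r, Gpihbp1, Aqp5, Prox1, Ccl21a, Lpl, Erg, Eng, Emcn, Robo4, Aplnr, Egfl7, Cav1, Cav2 and the partner genes given as examples were picked with their values in view. The genes and lists were chosen with earlier results of these data known. Haemoglobin genes were at 0 in every mouse.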

Additional observations from a re-analysis of the deposited data

Results flagged for a closer look

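In 20 groups of 5 mice, formed by the 10 genes within each diet, the gap between the highest mouse and the next, divided by the whole range, exceeded Dixon's 95% limit of 0.71 in 2. At most about 1 of 20 independent groups of normal values would pass it by chance. These groups share libraries, and CPM was not log-transformed, so the 2 cannot be set against that number. Cldn5 was at 109 CPM in FO mouse 2, with a ratio of 0.797. Vegfa was at 110 CPM in CO mouse 5, with a ratio of 0.86. Both are the libraries with the high Malat1 share, 8.53% and 6.15% of the counts outside Rn45s, and the part of that share in the values was not tested.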

How the results depend on the processing

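Among the 10 genes none was called in any of the alternatives that tested all genes with the default filter, and 169 of 188 values from single alternatives kept their direction and their side of the threshold, with 17 reversed and 2 past the threshold. Scaling by library size alone, where the median of all genes moved to -0.55, gave -0.033 for Cldn5, -0.077 for Car4, -0.24 for Ednrb and -0.045 for Calcrl. For Cldn5 limma-voom gave -0.28. With the replicate number as a block Cldn5 was at -0.025 and Kdr at 0.042, and the block changed no call among the 10 genes. Same-numbered mice are different animals, and no source used here pairs them beyond the number. Their deviations had a mean correlation of -0.12 (from -0.41 to 0.03), and whether they shared a batch was not tested. With the block 55 genes were called in place of 71. Without FO mouse 2 and CO mouse 5, Cldn5 was at -0.51, Kdr at 0.05, Tek at 0.29 and the r of Vegfa with Kdr at -0.17, as it was without the mice farthest from the Vegfa median. In that setting, and without either mouse, Vegfa was read from the fit of all genes with any count (added after the data were seen), at 0.41 without CO mouse 5. Over fits that each left out 1 mouse, log2 fold changes ranged from -0.69 to 0.72 for Cldn5, from -0.30 to 0.22 for Kdr, from -0.43 to 0.48 for Tek and from 0.03 to 1.03 for Car4.

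The count of all genes called, 71 in the main fit, was 36 with library size alone, 587 over all genes with any count, 15 over the 633 genes that reached 10 counts in all mice and 117 with limma-voom, and from 54 to 154 with a mouse left out, the highest without FO mouse 2. Genes with an adjusted p-value under 0.05 numbered 0 in edgeR's main fit, 1 with DESeq2, 1 over all genes with any count, 1 without FO mouse 2 and CO mouse 5, and 0 to 1 with a mouse left out. Of the endothelial and partner lists 2 genes were called in the main fit, 1 with DESeq2, 0 with library size alone, 6 over all genes with any count, 1 over genes that reached 10 counts in all mice, 4 with limma-voom, 4 without Rn45s, and from 1 to 6 with a mouse left out, the highest without FO mouse 2. Depth limits Car4, Ednrb, Tek and Cdh5 most, with 107 to 215 counts over all mice. The causes of these differences were not tested.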
